A study of Homo sapiens with 8 samples.

Results

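Chromatin accessibility was described at the genes of PU.1 (SPI1) and its ETS family relatives SPIB, SPIC, FLI1, ERG, ETS1, ETS2, ELF1 and ETV6, 9 genes in all. A member was any open region overlapping the body of one of these genes or the 50 kb on either side of it, by the GENCODE release 44 annotation of the human genome build hg38. A region was the union of all peaks of the 4 deposited lists that shared at least 1 bp, and 236 of the 161291 regions were members. The cells were U-937, a human leukaemia line of promonocytic character. They were exposed for 24 h to the vehicle DMSO, to 0.1 µM all-trans retinoic acid (ATRA, the ligand of the retinoic acid receptors), to 0.1 µM Corin (an inhibitor that blocks both the demethylase LSD1 and the deacetylases of the CoREST corepressor complex), or to both compounds at 0.1 µM each. ATAC-seq, which reads accessible DNA from the cuts of a transposase, was run on 2 samples per group, 8 in all. The authors combined the 2 samples of each group into a single peak list, so no value below has a spread between replicates, no test between groups could be made, and every error given covers counting only.

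ETS factors share a DNA-binding domain that reads a purine-rich core, GGAA, and PU.1, SPIB and SPIC form a subfamily with a preference for a longer purine-rich stretch before that core. PU.1 is required for the monocyte, granulocyte and B-cell lineages and acts in a graded manner, so that its level rather than its mere presence steers the choice between them. Its gene is known to be controlled by a proximal promoter and by distal elements that PU.1 itself occupies, and its relatives FLI1, ERG and ETV6 are known as partners of fusion genes in sarcoma, prostate cancer and leukaemia.

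The sequences that the results turn on are shown first, as the 200 bases around the strongest summit on the plus strand of hg38, read 5′ to 3′, with distances counted from the main start of the gene. They were chosen after their values were seen. The first set holds the 4 members whose accessibility was lower with ATRA both without and with Corin, and the capitals mark a match to the AP-1 motif TGANTCA, the site of FOS and JUN proteins.
FLI1, 24.4 kb upstream, chr11:128669579-128669778: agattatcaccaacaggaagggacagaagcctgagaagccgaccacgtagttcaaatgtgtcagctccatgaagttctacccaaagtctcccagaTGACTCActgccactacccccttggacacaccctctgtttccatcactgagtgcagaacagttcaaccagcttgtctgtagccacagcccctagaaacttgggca
ETS1, 115.2 kb downstream, chr11:128472279-128472478: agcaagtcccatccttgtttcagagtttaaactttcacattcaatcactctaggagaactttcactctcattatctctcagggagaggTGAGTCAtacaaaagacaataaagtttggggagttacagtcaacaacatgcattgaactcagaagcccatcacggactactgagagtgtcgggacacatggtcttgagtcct
ETS1, 98.9 kb downstream, chr11:128488604-128488803: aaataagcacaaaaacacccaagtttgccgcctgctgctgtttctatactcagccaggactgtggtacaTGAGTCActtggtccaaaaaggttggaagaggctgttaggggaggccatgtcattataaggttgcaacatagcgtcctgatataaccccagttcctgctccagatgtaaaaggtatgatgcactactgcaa
ETS2, 34.2 kb downstream, chr21:38840011-38840210: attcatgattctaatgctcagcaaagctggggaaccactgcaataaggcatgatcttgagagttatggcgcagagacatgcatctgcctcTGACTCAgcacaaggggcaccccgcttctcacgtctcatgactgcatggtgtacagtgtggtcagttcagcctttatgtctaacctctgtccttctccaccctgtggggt
The next is the SPI1 region that was in every list except that of DMSO, in which capitals mark a tandem repeat of a 39-bp unit that spans 118 bp of the window in 3.0 copies.
SPI1, 22.4 kb upstream, chr11:47400873-47401072: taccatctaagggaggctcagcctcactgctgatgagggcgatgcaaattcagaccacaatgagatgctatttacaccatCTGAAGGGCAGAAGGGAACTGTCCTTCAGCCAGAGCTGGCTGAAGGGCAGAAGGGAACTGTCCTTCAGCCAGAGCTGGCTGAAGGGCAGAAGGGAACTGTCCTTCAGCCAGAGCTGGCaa
The last set shows 2 members that hold matches to the PU.1 motif GAGGAAGT, marked in capitals. The match upstream of SPI1 lies on the minus strand and so reads ACTTCCTC, and the FLI1 window holds a pair of matches on the plus strand.
SPI1, 9.7 kb upstream, chr11:47388138-47388337: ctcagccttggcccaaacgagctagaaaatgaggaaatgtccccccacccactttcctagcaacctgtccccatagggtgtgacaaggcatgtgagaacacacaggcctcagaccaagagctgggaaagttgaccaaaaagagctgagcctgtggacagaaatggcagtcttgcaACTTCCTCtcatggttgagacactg
FLI1, 32.9 kb downstream, chr11:128726832-128727031: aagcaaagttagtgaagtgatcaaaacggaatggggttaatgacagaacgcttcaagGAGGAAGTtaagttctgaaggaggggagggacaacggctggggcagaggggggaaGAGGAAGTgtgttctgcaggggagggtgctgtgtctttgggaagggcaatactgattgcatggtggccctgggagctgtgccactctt

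The label of the cells was read against promoter regions in the DMSO list, with the reservation that an open promoter is not expression. Of 12 myeloid markers 9 had a promoter region, among them CD33, LYZ, CEBPA and SPI1 itself, while MPO, CD14 and FCGR1A had none. The markers of other cell types were 3 of 4 for B cells, 2 of 4 for T cells, 2 of 4 for erythroid and megakaryocytic cells, 1 of 3 for epithelial and 1 of 3 for endothelial cells. The DMSO, ATRA, Corin and combination lists held 222491, 222110, 189896 and 197548 peaks, with a median fold over local background of 3.47, 4.8, 3.32 and 3.68. The fold and the p-value of a peak are the authors' own. Regions are given by the highest fold of their peaks, and 2 lists were compared by the log2 difference of that fold minus its median over all regions called in both (0.33 for ATRA minus DMSO, -0.09 for Corin, 0.03 for the combination), called the centred difference. A difference past 1.5-fold either way is the limit used for counts. The most frequent local background was 9.12 reads with ATRA against 12.8, 13.1 and 13.9 with DMSO, Corin and the combination, and its part in the ATRA differences was not tested. Accessibility in such bulk samples cannot tell fewer cells with an open region from less opening per cell.

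Of the 236 regions, 171 (72.5%) were called with DMSO, 172 (72.9%) with ATRA, 162 (68.6%) with Corin and 138 (58.5%) with the combination. Over all regions the shares called were 70.5, 68.6, 61.5 and 57.8% in the same order. All 4 lists shared 110 of the 236 (46.6%, against 41.1% of all regions). Where a region was in all lists its strongest summit mostly stayed nearly in place: the 4 summits lay within a median of 22 bp, and in 82 of 110 regions (74.5%, against 80.5% of all) within 50 bp. The largest span was 967 bp. FLI1 had the most regions, 44, followed by ETV6 with 40, ETS1 with 32, ELF1 with 30, ERG with 28, ETS2 with 21 and SPI1 and SPIB with 19 each, while SPIC had 3. Per 100 kb of window the order was different, with FLI1 at 19.4, ETS2 at 17.5, SPIB at 16.9 and SPI1 at 15.4, and with ERG at 7.33 and SPIC at 2.69 the sparsest. The number called near SPI1 was highest with DMSO, 18, and stood at 13 with ATRA, 14 with Corin and 11 with the combination. ELF1 had its highest number with Corin (25, against 19, 18 and 17 with DMSO, ATRA and the combination), and ETV6 its highest with ATRA (33, against 27, 25 and 22). The lists differ in the share of all regions called, and its part in these counts per gene was not tested.

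**Figure D1:**
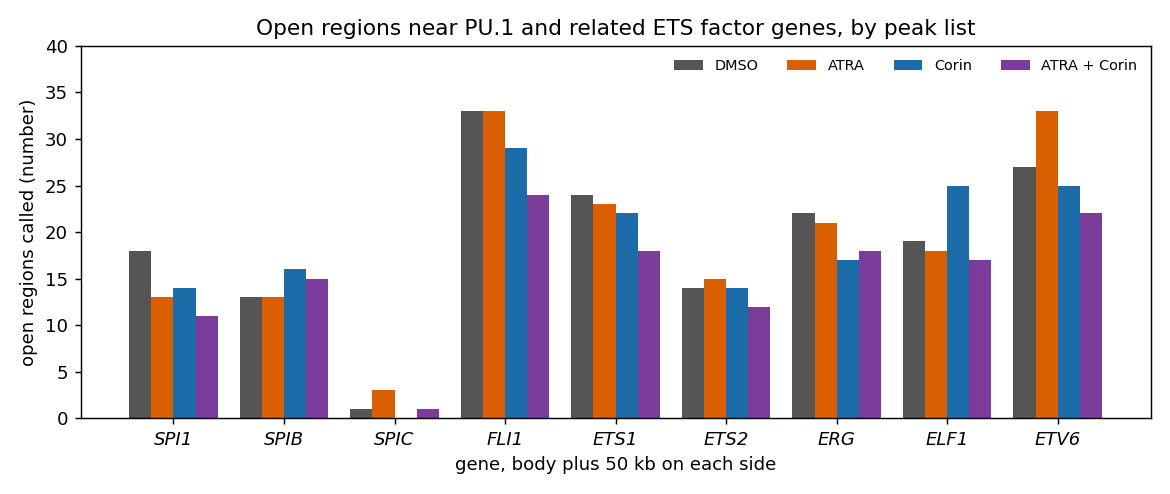
Number of open regions called near each of the 9 genes (body plus 50 kb on each side) in each of the 4 peak lists, 1 bar per list. SPI1 has its tallest bar with DMSO (18), ELF1 with Corin (25) and ETV6 with ATRA (33), and SPIC has no region with Corin. Of all regions, 70.5% were called with DMSO, 68.6% with ATRA, 61.5% with Corin and 57.8% with the combination.

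Gains and losses near the 9 genes were close to, or below, those of the genome. ATRA gained 35 of its 172 regions over DMSO (20.3%), where 23.3% of all ATRA regions were gained, and lost 34 of 171 DMSO regions (19.9%, against 25.4%). Corin gained 30 of 162 (18.5%, against 17.8%) and lost 39 of 171 (22.8%, against 28.4%). The combination gained 16 of 138 (11.6%, against 16.6%) and lost 49 of 171 (28.7%, against 31.6%). Regions called in both lists with ATRA and in neither other were 5 of 236 (2.12%, against 3.2% of all regions), and those in both lists without ATRA only were 12 (5.08%, against 4.24%). Those in both lists with Corin only were 7 (2.97%, against 1.51%), and those in both lists without Corin only 15 (6.36%, against 5.14%). Most of these shares are near the background and carry no result about the 9 genes as a set.

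Strength was also near the background in most comparisons. With ATRA 26 of 137 shared regions were past 1.5-fold higher than with DMSO and 10 lower, against 16.6% and 8.8% of all shared regions. Corin had 7 higher and 13 lower of 132 (6.34% and 10.8% of all), and the combination 16 higher and 12 lower of 122 (8.26% and 12.1% of all). Set against ATRA alone, the combination had 9 higher and 21 lower of 124 (7.18% and 18.1% of all), and set against Corin alone 15 higher and 11 lower of 124 (9.71% and 8.97% of all). The members with the combination past the limit above DMSO were 13.1% of those shared, the comparison in which their share stood farthest above that of all regions.

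The PU.1 gene SPI1 lies on chromosome 11 and is read from the minus strand, with its start in the region chr11:47376327-47379081. At this promoter the fold was 8.22 with DMSO, 10.1 with ATRA, 8.49 with Corin and 10.8 with the combination. The centred difference from DMSO was -0.04 ± 0.07 (counting SE) with ATRA, 0.13 ± 0.08 with Corin and 0.37 ± 0.07 with the combination, so no treatment moved it past the limit by fold. The pileup at the summit, the number of overlapping reads recovered from the authors' fold and p-value, read differently: 766, 1245, 689 and 981 in the same order, a centred difference of 0.6 for ATRA. By fold the promoter had no difference with ATRA beyond its counting error, and by pileup the ATRA list was the highest.

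Upstream of SPI1 a cluster of regions ran from 9.7 to 22.4 kb before the start. The nearest, at chr11:47387827-47389359 and with the PU.1 match printed above, had a fold of 7.35 with DMSO, 8.4 with ATRA, 7.03 with Corin and 8.8 with the combination, and by pileup its centred ATRA difference was 0.65. The next, 12.7 kb upstream, went from 2.93 with DMSO to 3.6, 3.29 and 3.48, and its centred differences (-0.04, 0.26 and 0.22) were under the limit. By pileup it read 367 with DMSO and 732 with ATRA, a centred 0.89, which is past it. At 14.8 kb upstream (chr11:47393063-47393832) both lists with ATRA were the high ones, at 4.12 and 3.75 against 2.3 with DMSO and 2.39 with Corin. Its centred difference was 0.51 ± 0.1 for ATRA, under the limit, and 0.68 for the combination, past it, and by pileup the ATRA difference was 1.29. The region 16.3 kb upstream (chr11:47394021-47395814), had a fold of 6.93 with DMSO, 5.64 with ATRA, 6.88 with Corin and 5.82 with the combination. By fold it was -0.63 ± 0.08 with ATRA, past the limit, but by pileup it was 0.25, in the other direction, so no direction can be given for it. An upstream element of SPI1 that PU.1 itself occupies is well known in myeloid cells, and which of these regions corresponds to it was not tested.

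The region 22.4 kb upstream (chr11:47400806-47401246), which holds the tandem repeat, was the only one near SPI1 called in some treated list and not with DMSO. Its fold was 7.16 with ATRA, 2.52 with Corin and 6.09 with the combination, the lists with ATRA standing well above the list with Corin alone. Combination minus Corin was 1.17 centred, and the −log10 p was 44.5, 6.85 and 42.4 in the 3 lists. How reads that map to repeats were placed is not given in the sources used here. In an intron, 18.7 kb downstream of the start, the strongest distal region by −log10 p with DMSO, the measure by which distal regions are called strongest below (chr11:47359215-47360419) had a fold of 12.5, 10.2, 12.4 and 13.4 in the order DMSO, ATRA, Corin, combination. Here ATRA alone was the low list, with a centred difference of -0.63 ± 0.07 by fold, past the limit, and -0.57 by pileup, just under it.

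Losses near SPI1 were mostly of weak regions. The region 4.5 kb downstream, in an intron, was called with DMSO alone, at a fold of 2.65 and a −log10 p of 39.3. The region 33.8 kb upstream (3.15 with DMSO, 3.07 with ATRA and 2.95 with Corin) was missing with the combination alone, and the intergenic region chr11:47418433-47418968 (2.29 and 2.03) was in the DMSO and ATRA lists only. The others lost with ATRA lay past the gene's end within MADD and MYBPC3, with DMSO folds between 1.8 and 3.62. The region 29.5 kb downstream of the start, in MYBPC3, had 6.6 with DMSO, 8.24 with ATRA, 4.23 with Corin and 4.13 with the combination, and was the largest fall near SPI1 with the combination at -0.7. Regions at the starts of the neighbours SLC39A13 (12.6, 13.8, 13.3 and 14.5) and PSMC3 (14.8, 14.9, 14.2 and 17.1) stood at high folds in every list.

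**Figure D2:**
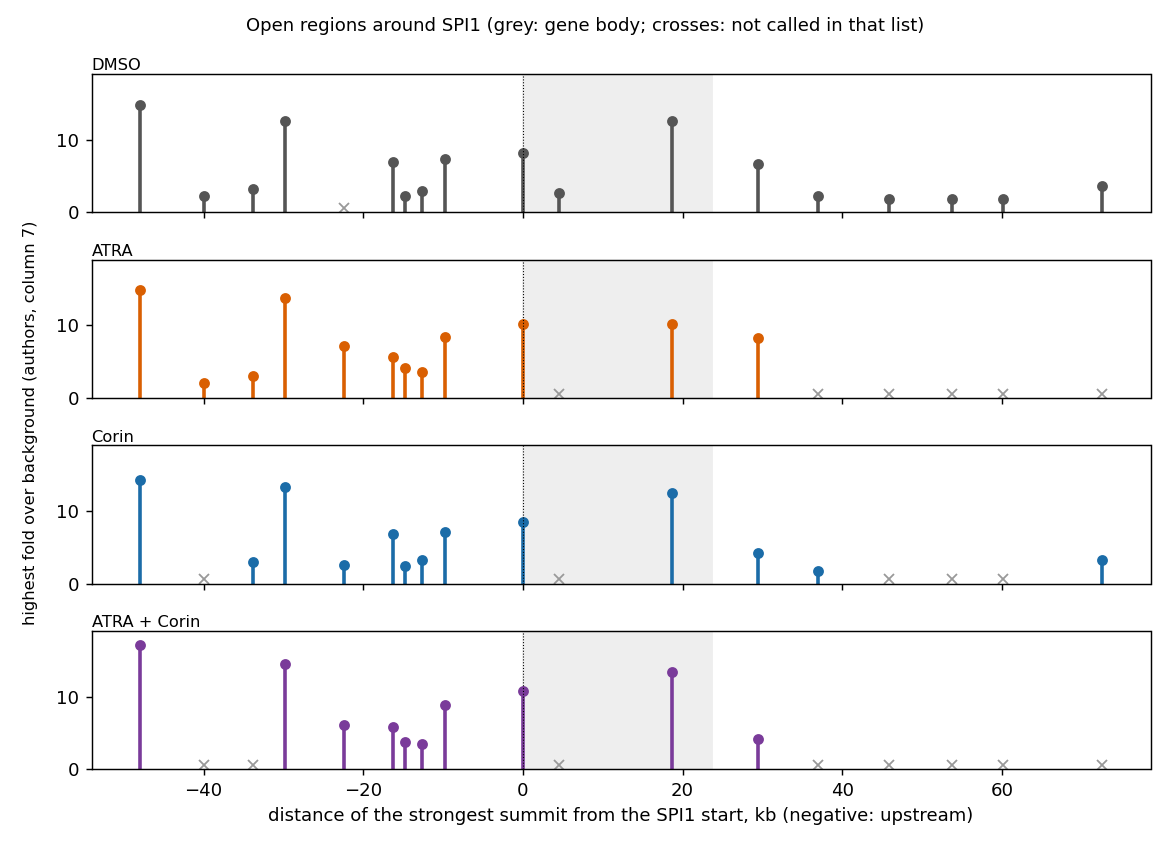
Highest fold over background of the open regions near SPI1, with 1 left out (vertical axis) by its distance in kb from the SPI1 start (horizontal axis, negative upstream), 1 panel per list, with the gene body in grey and a cross where a region was not called. The region 22.4 kb upstream has a cross with DMSO and a fold of 7.16 with ATRA.

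SPIB, the relative of PU.1 that serves B cells and plasmacytoid dendritic cells, had no open region within 1 kb of its start in any list. The nearest lay 2.53 kb away, in an exon of POLD1 and at a start of the gene ENSG00000142539 (chr19:50414744-50416412), with a fold of 6.6 with DMSO, 8.06 with ATRA, 3.09 with Corin and 5.33 with the combination. Corin was its low list, at a centred difference of -1.01. Its strongest summit lay at position 50414946 with DMSO but at 50415907 with ATRA, 50415911 with Corin and 50415913 with the combination. The folds compared there may therefore be of different peaks. A region inside the gene, 9.2 kb from its start (chr19:50427960-50428403) had 4.15, 6.19, 4.56 and 5.85, with no difference past the limit. Of the 19 regions in the window, 7 stood at the starts of other genes, such as NR1H2 and POLD1. The highest fold with ATRA, 18.9, was in an intron of MYBPC2 (chr19:50461060-50461984), up from 9.92 with DMSO at a centred 0.6 ± 0.15. The ATRA difference there by pileup was 0.17, under the limit. SPIC, which drives the iron-recycling macrophages of the spleen, also had no region at its start. Its window held 3 regions, all upstream, all in the ATRA list and none in the Corin list. The strongest, at chr12:101441870-101442155 and 33.3 kb upstream, was called with ATRA alone at a fold of 10.6, and the only one also in the DMSO list, at chr12:101459663-101460207, had 2.25 with DMSO, 5.44 with ATRA and 3.21 with the combination (ATRA 0.94 ± 0.33).

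FLI1, a factor of megakaryocytes, endothelium and blood stem cells, had the most regions past the limit upward with ATRA. ATRA stood higher at 9 of 25 shared regions and lower at 1 (16.6% and 8.8% of all shared regions). The combination stood lower than ATRA at 6 of 23 and higher at 0 (18.1% and 7.18% of all), the share of lower ones being nearer the background. The promoter region (chr11:128693142-128695496) was weak and little changed, at 4.03 with DMSO, 4.37 with ATRA, 4.17 with Corin and 3.43 with the combination. Just inside the first intron, 2.0 kb from the start, the strongest distal region had 10.5, 13.6, 10.4 and 12.6. The largest rise with ATRA was 40.6 kb into the gene (chr11:128734203-128735123), from 3.4 with DMSO to 12.6 with ATRA, with 4.66 for Corin and 6.13 for the combination. Its centred difference was 1.56 ± 0.18 with ATRA, and the combination minus ATRA was -0.7.

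Other intronic FLI1 regions with ATRA on the high side differed in what was seen with Corin present. At 22.3 kb (chr11:128715934-128716565) the rise was kept when Corin was present: 3.1 with DMSO, 6.4 with ATRA, 3.08 with Corin and 5.24 with the combination. At 19.6 kb the values were 5.38, 9.93, 5.65 and 9.23, with ATRA 0.55 and combination minus Corin 0.61. At 11.6 kb (chr11:128705377-128706002) the rise was not kept: 2.5 with DMSO, 8.79 with ATRA, no call with Corin and 2.8 with the combination, where combination minus ATRA was -1.31. At 69.3 kb (chr11:128762977-128763791) it was kept in part: 3.82 with DMSO, 12.6 with ATRA, 2.18 with Corin and 4.35 with the combination. ATRA minus DMSO was 1.38 ± 0.19 there and combination minus Corin 0.9, while combination minus ATRA was -1.19. The intergenic region 121.4 kb downstream of the start (chr11:128814976-128815837), which holds a PU.1 match, had 4.38 with DMSO, 12.2 with ATRA, 2.62 with Corin and 2.97 with the combination. There the combination lay below DMSO (-0.59), and below ATRA by the largest centred difference near FLI1, -1.7. The region with a pair of PU.1 matches, 32.9 kb into the gene (chr11:128725242-128727291), had 10.8, 18.3, 9.14 and 13.9. Both lists with ATRA were above both without it, by a centred 0.42 ± 0.07 and 0.51, under the limit by fold. By pileup the same differences were 0.72 and 0.88, which is past it.

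The region upstream of FLI1 that carries the AP-1 match printed above (chr11:128669371-128669985, 24.4 kb before the start) moved the other way. Its fold was 8.53 with DMSO, 4.18 with ATRA, 11.4 with Corin and 3.33 with the combination, so that both lists with ATRA lay below both without it. The centred difference was -1.36 ± 0.22 for ATRA minus DMSO and -1.88 ± 0.21 for the combination minus Corin, the most negative among the 110 regions in both comparisons. By pileup it was 203 with DMSO, 54 with ATRA, 254 with Corin and 57 with the combination.

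ERG, the close paralog of FLI1 that sustains blood stem cells, had no region within 1 kb of its main start in any list, the nearest lying 7.04 kb away. Its open start was an alternative one (chr21:38660353-38661638), at a fold of 11 with DMSO, 12.8 with ATRA, 13.6 with Corin and 9.51 with the combination, where the combination minus Corin was -0.62 ± 0.12. Of the 14 ERG regions in all lists, 4 were lower with Corin both against DMSO and on top of ATRA (5.98% of all regions in all lists). At chr21:38447292-38449007, in an intron, the fold was 10 with DMSO, 15.9 with ATRA, 4.1 with Corin and 3.82 with the combination. The centred differences there were -1.21 for Corin minus DMSO and -1.72 for the combination minus ATRA. The intergenic region at chr21:38333559-38334870 had 7.83, 7.31, 3.42 and 3.01, again with both lists with Corin low. ATRA was on the high side at 5 of 17 shared regions and on the low side at 0 (16.6% and 8.8% of all shared regions). Farthest upstream of these, chr21:38679098-38680124 had 7.6 with DMSO, 19.8 with ATRA, 10.7 with Corin and 14.8 with the combination, and chr21:38639506-38640310 had 8.62, 19.5, 6.44 and 14.8, with ATRA 0.84 ± 0.16 and combination minus Corin 1.1.

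**Figure D3:**
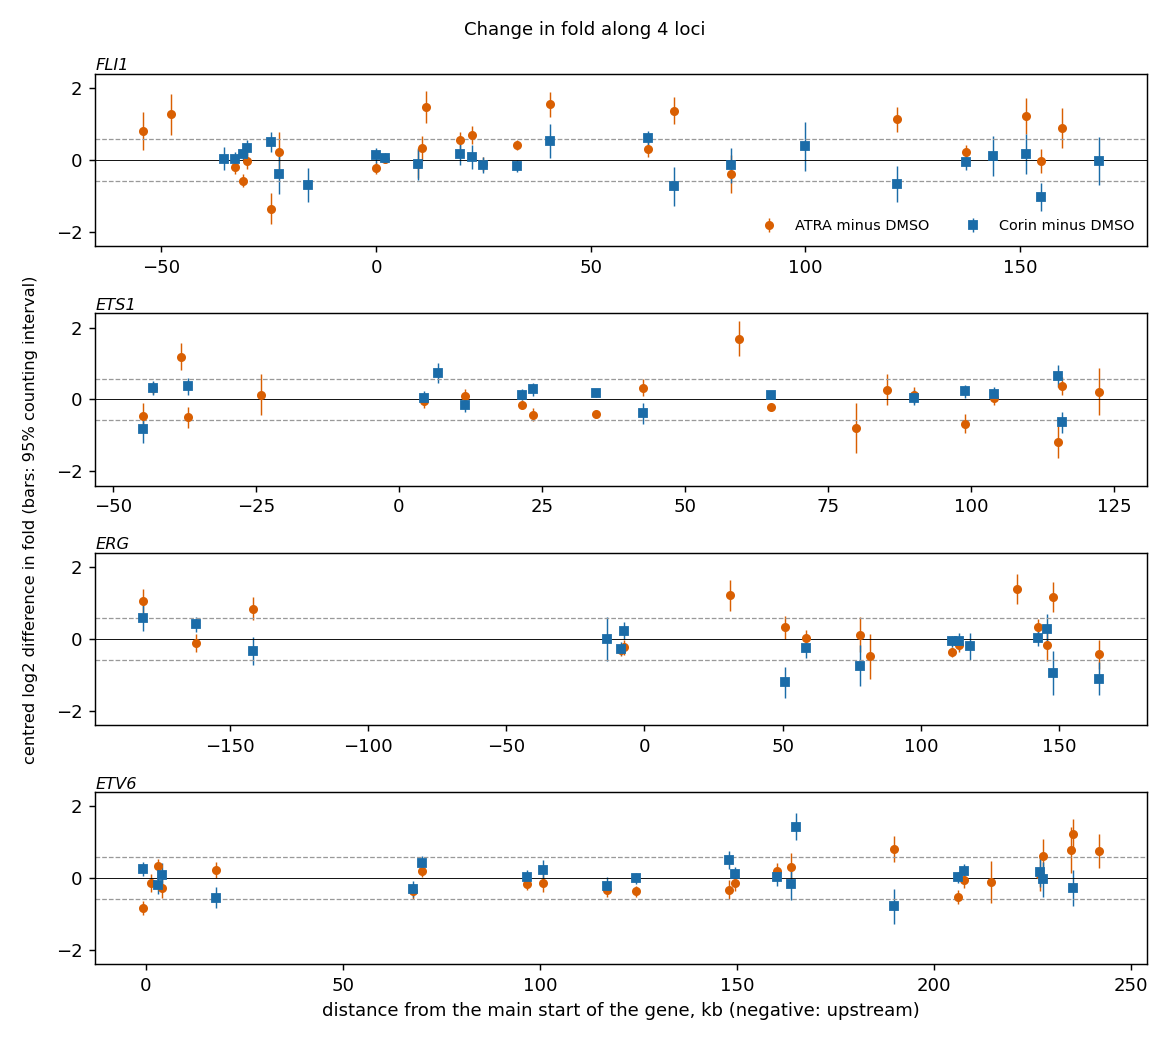
Centred log2 difference in fold (vertical axis) of every region called in both lists, by distance in kb from the main start (horizontal axis, negative upstream), for FLI1, ETS1, ERG and ETV6, with circles for ATRA minus DMSO, squares for Corin minus DMSO and bars for the 95% counting interval. Dashed lines mark 1.5-fold; the FLI1 circle at -1.36 is the lowest of the ATRA values, and the ERG square at -1.21 the lowest of the Corin values.

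ETS1, a factor of T and natural killer cells, also had no region within 1 kb of its main start, the nearest being 4.13 kb away. Its strongest promoter region was at an alternative start inside the gene (chr11:128521748-128523064), at 17.1 with DMSO, 18.5 with ATRA, 17.6 with Corin and 17.9 with the combination. No centred difference there exceeded 0.3. The strongest distal region, 34.4 kb into the gene, had 18.9, 18.1, 20.2 and 20.1, with a centred -0.4 ± 0.06 for ATRA minus DMSO and 0.49 ± 0.06 for the combination minus ATRA, both under the limit. A pair of neighbouring regions in the same intron went opposite ways. At chr11:128470928-128472085 the fold was 10.5 with DMSO, 17.1 with ATRA, 6.4 with Corin and 7.03 with the combination, with a centred -0.63 for Corin minus DMSO and -0.95 for the combination minus ATRA. At chr11:128472117-128472782, with the AP-1 match printed above, it was 6.19, 3.45, 9.21 and 5.55. This region was lower with ATRA (-1.18 ± 0.23, and -0.83 ± 0.18 on top of Corin) and higher with Corin (0.66 ± 0.16, and 1.02 ± 0.25 on top of ATRA). The other ETS1 region with an AP-1 match near the summit and a fall with ATRA, chr11:128488379-128489204, had 12.9, 10.3, 14.3 and 9.12. The largest rise with ATRA near ETS1 was at chr11:128527712-128528440, which holds a PU.1 match, from 3.23 with DMSO to 13.1 with ATRA (1.69 ± 0.25), with 5.2 for the combination and no call with Corin.

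ETS2, the paralog of ETS1 that acts downstream of RAS signalling and in macrophages, had an even promoter region (chr21:38805082-38806749) at 11.9, 13.3, 12.2 and 13.4. Its upstream region chr21:38797353-38797864 rose with each compound alone: 4.2 with DMSO, 15 with ATRA, 8.83 with Corin and 6.78 with the combination, with centred differences of 1.5 ± 0.19 with ATRA, 1.16 with Corin and 0.66 with the combination. By pileup these differences were 0.66, 1.19 and 0.17, with Corin the high list and the combination under the limit. The AP-1 region at chr21:38839573-38840351 had 5.22 with DMSO, 3.56 with ATRA, 8.94 with Corin and 3.75 with the combination. ATRA was low there in both comparisons (-0.89 ± 0.28 and -1.35 ± 0.22), and Corin minus DMSO was 0.86 ± 0.17. A further region with an AP-1 match, chr21:38853318-38854031, had 8.72 with DMSO, no call with ATRA, 11.7 with Corin and 3.75 with the combination, where combination minus Corin was -1.74. The region chr21:38761482-38762205 was low with the combination alone, at 4.06 against 8.65, 16.2 and 9.05 with DMSO, ATRA and Corin. Near the far end of the window chr21:38869006-38869706 had the highest fold of all members, 25 with ATRA, against 15.4 with DMSO, 8.77 with Corin and 9.91 with the combination.

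ELF1, a factor broadly expressed in blood cells, had regions at several starts. At the main start (chr13:41018695-41019560) the fold was 16.5 with DMSO, 17 with ATRA, 17.7 with Corin and 17.3 with the combination, and at the start shared with WBP4 (chr13:41060037-41062212) it was 10.1, 9.9, 8.82 and 9.55. Neither passed the limit in any comparison. The rise with ATRA at chr13:40996545-40997425, in an intron, was from 7.75 with DMSO to 18.7, and 5.74 with Corin stood against 12.9 with the combination (0.93 ± 0.15 and 1.07). ELF1 also held 3 of the 7 member regions called in both lists with Corin and in neither other. They were chr13:40963994-40964237 (5.22 with Corin and 3.56 with the combination), chr13:41008388-41008695 (4.58 and 3.31) and chr13:41017235-41017635 (5.63 and 4.37), and the first 2 of them hold an AP-1 match. A further AP-1 region, chr13:41050116-41050450, was in the Corin list alone at 4.68 and a −log10 p of 64.9.

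ETV6, a repressor of the family that is fused to RUNX1 in childhood leukaemia, had the only lead promoter region of the 9 genes past the limit with ATRA. At chr12:11648555-11650012 the fold was 6.26 with DMSO, 4.43 with ATRA, 7.08 with Corin and 6.42 with the combination, with ATRA the low list. The centred difference was -0.84 ± 0.1 for ATRA minus DMSO and 0.87 for the combination minus ATRA, but -0.44 and 0.15 by pileup, under the limit. A region 3.0 kb into the gene (chr12:11652280-11653042) had 3.74, 5.98, 3.11 and 5.78, both lists with ATRA being the high ones. At an alternative start (chr12:11884566-11885432), which also holds an AP-1 match, ATRA alone was high: 5.15 with DMSO, 15.4 with ATRA, 4.03 with Corin and 3.55 with the combination, and the combination minus ATRA was -1.78, the lowest such value of all members. The region chr12:11838465-11839825 had 6.81, 15.1, 3.75 and 7.42, higher with ATRA in both comparisons (0.81 ± 0.18 and 0.88) and lower with Corin in both (-0.78 and -0.69). Corin's largest rise of all members was at chr12:11814430-11814740, another AP-1 region, from 2.65 with DMSO to 6.8 with Corin (1.44), with no call in either list with ATRA. ATRA gained 9 of its 33 ETV6 regions, near the 23.3% gained of all ATRA regions, the strongest at chr12:11724804-11725283, which was in that list alone at 11.2 and a −log10 p of 123.

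The effect of a compound could be read in 2 comparisons that share no list: ATRA against DMSO and the combination against Corin for ATRA, Corin against DMSO and the combination against ATRA for Corin. Over the 110 members in all lists, the ATRA differences of the 2 comparisons had the same sign at 76 (69.1%, against 69.7% of all regions) and a Spearman correlation of 0.59 (0.58 over all regions). The Corin differences had the same sign at 85 (77.3%, against 70.8%) and a correlation of 0.58 (0.58 over all regions). These are descriptions across regions that share the lists' depth and background. ATRA was past the limit in both comparisons, upward, at 7 members (6.13% of all regions) and, downward, at 4 (3.31%). The 7 were 2 near FLI1, 2 near ERG, and 1 each near ETS2, ELF1 and ETV6, and the 4 were the AP-1 regions printed above. Corin was past the limit upward at 2 (2.09%), among them the ETS1 region at chr11:128472117-128472782, and downward at 9 (5.98%), of which 4 were near ERG and 2 near FLI1. None of these members lay within 1 kb of a coding start.

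**Figure D4:**
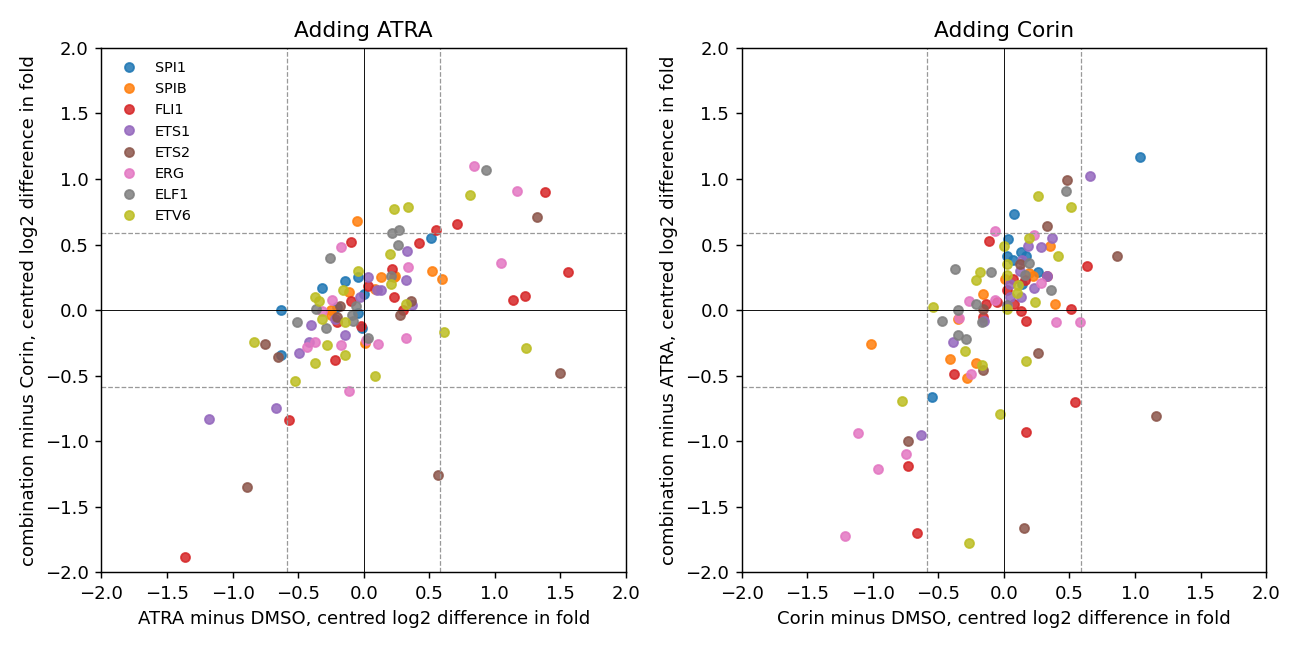
Centred log2 differences in fold of the 110 regions called in all 4 lists, coloured by gene. Left, ATRA minus DMSO (horizontal) against the combination minus Corin (vertical), with a Spearman correlation of 0.59; right, Corin minus DMSO (horizontal) against the combination minus ATRA (vertical), with 0.58; dashed lines mark 1.5-fold, and the lowest point on the left is the FLI1 region at -1.36 and -1.88.

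Motifs were searched on both strands in the 200 bp around the strongest summit of each region, as exact letters, and a match is a description and not a bound site. AP-1 (TGANTCA, which reads the same on both strands) was found in 30 of 236 members (12.7%, against 12.2% of all regions). PU.1 (GAGGAAGT) was in 18 (7.63%, against 6.73%), C/EBP (TTNNGCAAT) in 12 (5.08%, against 4.72%) and RUNX (TGTGGTT) in 11 (4.66%, against 8.27%). GFI1 (AATCANNGC) was in 2 (0.847%, against 2.31%), the general ETS motif (CCGGAAGT) in 1 (0.424%, against 0.791%), and the retinoic acid receptor repeat, GGTCA followed after 5 bases by GGTCA, in 0 (0.0775% of all). The PU.1 matches were in members of every gene but SPIB and SPIC, with a single region near SPI1.

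Regions with an AP-1 match were mostly higher with Corin, and lower where ATRA was added to it. All 4 members lower with ATRA in both comparisons had a match in the 200 bp window, as did 51.3% of the 2195 regions of that kind in the genome. In the 4 members the match lay within 28 bp of the summit, a distance not computed for the other regions. Of the 7 members past the limit upward with Corin against DMSO, 6 had a match, and 56.6% of all such regions did. Of the 11 past the limit downward with the combination against Corin, 7 had a match, and 46.5% of all such regions did. Across the 20 members with a match called in both lists, Corin minus DMSO had a median of 0.46, while the 112 without a match had a median of 0. It was above 0 at 17 of the 20 and below 0 at 3. Over all regions with a match its median was 0.24, and 25.8% were below 0. Combination minus Corin was below 0 at 18 of 22 members with a match, and at 75.1% of all regions with a match (medians -0.29 and -0.27). ATRA minus DMSO was less uniform, with a median of -0.29 over 17 members with a match, 10 of them below 0. Over all regions with a match its median was -0.15, and 62.4% were below 0. Past the limit upward were 4 of the 17, among them the ETS2 region at chr21:38797353-38797864 and the ETV6 region at chr12:11884566-11885432. Of the 28 members called in the ATRA list alone 2 had a match, of the 21 in the Corin list alone 4 had one, and of the 7 in both lists with Corin only 3 did. The shares among all regions called in these same lists were not computed, so these counts carry no result about the members. Since the same letters went with the same directions of the fold differences over the whole genome, those directions are not particular to the 9 genes.

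**Figure D5:**
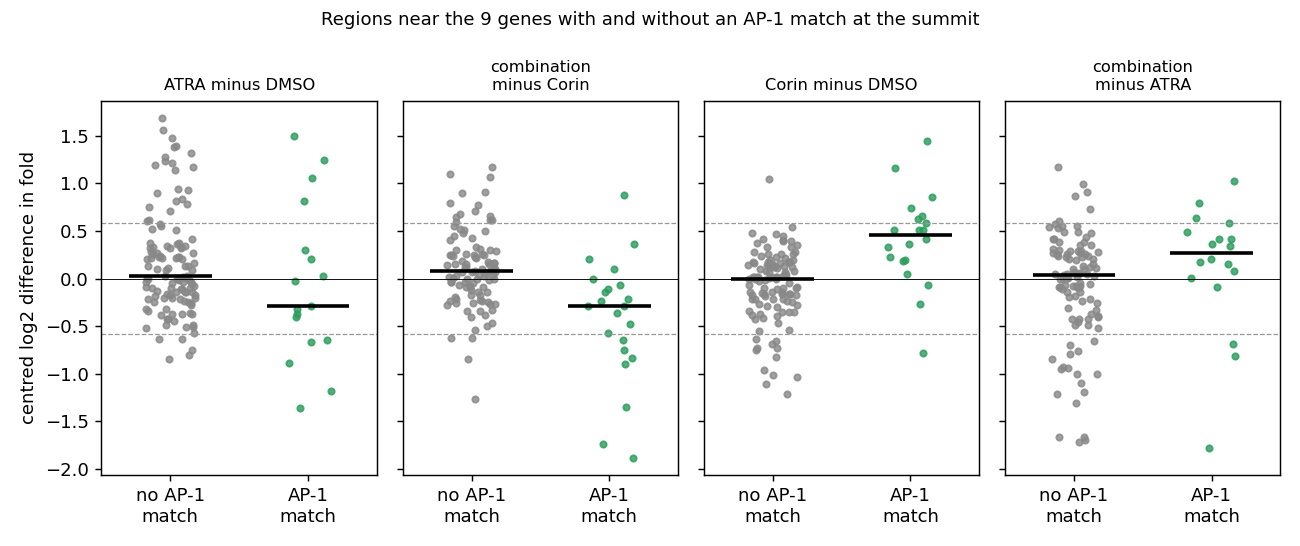
Centred log2 difference in fold (vertical axis) of each member region without and with an AP-1 match in the 200 bp around its summit, 1 point per region with a bar at the median, for 4 comparisons; sideways scatter is only for display. The medians with a match are -0.29, -0.29, 0.46 and 0.27 from left to right.

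Regions with a PU.1 match leaned higher with ATRA over the whole genome, so this direction is not particular to the 9 genes. Among 13 members with a match, ATRA minus DMSO was above 0 at 8. ATRA minus DMSO had a median of 0.42 over 13 such members, against 0.29 over all regions with a match and 0 over the 124 members without one. It was below 0 at 5 of the 13, and at 29.4% of all regions with a match. Of the 26 members past the limit upward with ATRA, 6 had a match, and 15.3% of all such regions did. Of the 10 past it downward 0 had one, against 3.04% of all such regions. Combination minus Corin was above 0 at 8 of 10 (median 0.16, and 0.19 over all regions with a match). It was below 0 at 2 of them, and at 31.8% of all regions with a match. Corin minus DMSO had a median of -0.01 over 10, and of -0.1 over all regions with a match. The members with a PU.1 match and the largest ATRA differences were the ETS1 region at chr11:128527712-128528440 (1.69), the ERG region at chr21:38467198-38468017 (1.21) and the FLI1 region at chr11:128814976-128815837 (1.14). Lower regions tended to have higher ATRA differences in the whole table: the median centred difference was 0.25 in the class of lowest DMSO fold and -0.16 in that of highest, of 5 equal classes, and the part of this in the members' values was not tested.

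Few promoters passed the limit against DMSO. The 7 lead promoter regions of the 9 genes had a median centred difference of -0.22 with ATRA, 0.13 with Corin and 0.01 with the combination, where all promoter regions of the genome had -0.18, 0.07 and 0.04. Of 19 other ETS factor genes, 15 had a promoter region with DMSO, and their medians were -0.23, 0 and 0.04. With ATRA 2 of these were past the limit upward, ELF3 (0.59) and EHF (0.97), both factors of epithelium, and 1 downward, ELF5 (-1.26), a factor of mammary and airway epithelium. EHF had a fold of 10.4 with DMSO, 25.7 with ATRA, 5.31 with Corin and 7.97 with the combination. With Corin ELF5 (-0.95), EHF (-0.89) and ETV1 (-0.77) were past it downward. Set against ATRA alone, the combination was past it downward at 4 of 15, ELF3 (-0.61), EHF (-1.35), ETV1 (-0.81) and ETV3L (-1.58). ELK3 (0.67) was past it upward. Over all shared regions 18.1% were lower and 7.18% higher in that comparison. Among 20 known PU.1 target genes of myeloid cells, 14 had a promoter region with DMSO, with a median centred difference of -0.16 with ATRA, 0.11 with Corin and 0.16 with the combination. CSF1R, the receptor of the macrophage growth factor, was the only one past the limit upward with ATRA: its fold was 2.69 with DMSO, 9.4 with ATRA, 1.91 with Corin and 5.18 with the combination, a centred 1.47 ± 0.14 with ATRA and 0.92 ± 0.15 with the combination. CSF3R, the receptor of the granulocyte growth factor, was the only one downward, at 7.83, 6.25, 7.49 and 5.89 (-0.66 ± 0.08 with ATRA). That fall is by fold alone. The −log10 p there was higher with ATRA (332) than with DMSO (281), and no difference by pileup is given for it.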

How the data were processed

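ATAC-seq of U-937 cells gave 4 narrowPeak lists, 1 per group, each combining 2 samples. Cutadapt, Bowtie2, SAMtools, Picard, MACS2 and hg38 are named per the submitters' processing notes; their roles, versions and settings are not given in the sources used here. The deposited lists hold, from the authors, a fold over local background (a ratio), −log10 p values, a −log10 q score, and the summit's distance from the peak start; depth per sample is unknown. Here overlapping peaks (1 bp) were merged over the lists into 161291 regions, each with the highest fold per list, using Python 3.11.15 with numpy 2.4.6, pandas 2.3.3 and scipy 1.17.1. Pileups were solved from fold and p as Poisson counts and came out whole (within 0.05) for 99.96 to 99.98% of peaks. Counting errors come from them, and intervals at 95% cover counting only, since PCR copies are not independent molecules. The calculation was tested on simulated data with known answers. Starts are those of protein-coding transcripts in GENCODE release 44, and a promoter region lies within 1 kb of one. The text names all 9 genes and takes regions from their promoter regions, the strongest distal region, the largest rise, fall, gain and loss per treatment, and the SPI1 regions, without printing every one; 1 near SPI1 is not reported here, and any other region was chosen after its values were seen. The members, lists and motifs were chosen with earlier results of these data known. Alternatives were a −log10 q of at least 5, 50% cover of a region, 10 kb windows, leaving out other genes' starts, lists of equal length, quantile scaling, pileup in place of fold, and centring by promoter class.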

Additional observations from a re-analysis of the deposited data

How the results depend on the processing

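No paired analysis was possible because the deposited lists combine the samples of each group, and leaving out a replicate was not possible for the same reason. Leaving out regions at other genes' starts kept every count within 1.5 times of its value, and of the 88 named values past the 1.5-fold limit, 88 kept their direction under class centring and quantile scaling and 87 by pileup, with 87, 76 and 71 still past it. Exactly 1 reversed: the SPI1 region 16.3 kb upstream, ATRA minus DMSO, 0.25 by pileup. With peaks of −log10 q of at least 5, regions gained with Corin fell to 18. Where peaks had to cover 50% of a region, those lower with ATRA were 6 and those higher with the combination than Corin 9. Windows of 10 kb, which hold fewer regions, gave 105 called with DMSO, 114 with ATRA, 23 gained and 14 lost with ATRA, 17 lost with Corin, 20 lost with the combination, 15 higher and 6 lower with ATRA, 8 lower with Corin, 6 lower with the combination, and 6 lower with the combination than Corin. Lists of equal length gave 23 lost with Corin and 28 with the combination. The combination was higher than ATRA at 18 regions by quantile scaling and at 14 with class centring. By pileup 14 were higher with Corin, 25 lower with the combination, and 20 lower with the combination than Corin; apart from the windows and equal lengths, the cause was not tested. Values rest on 1 list per group, and sequencing depth is unknown.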
